A study of Mus musculus with 8 samples.

Results

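The complement regulators examined here are 8 genes whose products restrain the complement cascade: the soluble proteins encoded by Serping1, Cfi, Clu and Vtn, and the membrane proteins encoded by Cd55, Cd59a, Cd46 and Csmd1. They were chosen by symbol, and all 8 were found among the 25477 genes of the deposited count table and passed the filter on low counts that left 16861 genes for testing. Polyadenylated RNA was sequenced from the retina of mice with choroidal neovascularization (CNV), the growth of new vessels from the choroid under the retina. The 4 libraries titled KO-CNV carry the genotype PD-L1 knockout, and the 4 titled WT-CNV carry the genotype control. PD-L1, encoded by Cd274, is a ligand that restrains immune cells through the receptor PD-1. Both groups share the CNV state, and no retina without CNV was analysed here. Not given in the sources used here are the targeted allele, the strain, the age, the sex, the way CNV was induced and the time after it. The labels do not say whether each library came from a separate animal, so a p-value covers the spread among these libraries, which may be technical in part.

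Complement is a cascade of plasma and locally made proteins that tags targets with fragments of C3 and C4, calls in phagocytes and can end in a membrane attack complex. Host cells are spared because regulators act at each step. C1 inhibitor (Serping1) inactivates the proteases C1r and C1s, factor I (Cfi) cuts C3b and C4b with the help of cofactors such as CD46, and CD55 speeds the decay of the convertases. CD59 blocks the membrane attack complex, while clusterin (Clu) and vitronectin (Vtn) bind its soluble forms. In the retina complement is known for its part in microglial clearance of synapses and debris, and variation in regulator genes is known from human age-related macular degeneration.

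Interferons are known inducers of several complement genes, so the start regions of the regulators are shown for a motif of interferon-responsive promoters. RefSeq promoter windows (build GRCm38.p6, from 250 bases before to 50 bases after a start site that the table holds) were matched for 4 of the 8 genes: Cd59a, Cd55, Cd46 and Vtn, and not for Serping1, Cfi, Clu and Csmd1. The start site of the window was the outermost start of the gene for Vtn, and it lay 48 bases inside the gene for Cd59a, 2265 bases inside for Cd55 and 6536 bases inside for Cd46. The motif, GAAA repeated after any 2 bases (an interferon-stimulated response element, ISRE, in short form), was searched on both strands and was present once in the windows of Cd59a, Cd46 and Vtn, and it was not found in that of Cd55. It occurs in 3.44% of 32851 promoter windows of the same length. Capitals mark the match, which begins 187 bases before the start site of the Cd59a window, at base 3 after that of Cd46 and at base 5 after that of Vtn. The Cd59a stretch stops short of the annotated gene, and the other 2 show the match with 10 bases on either side. The stretches are chr2:104095551-104095750 (plus strand), chr1:195092227-195092256 (minus strand) and chr11:78499114-78499143 (plus strand).
Cd59a: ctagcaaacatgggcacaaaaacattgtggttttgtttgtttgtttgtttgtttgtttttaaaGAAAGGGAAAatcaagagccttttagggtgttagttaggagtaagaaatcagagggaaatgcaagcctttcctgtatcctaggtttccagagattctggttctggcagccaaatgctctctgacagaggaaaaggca
Cd46: tggcgcccagTTTCCCTTTCagtctggtaa
Vtn: tggcgagggtTTTCTGTTTCccagctctcc
Of the other motifs searched on both strands in these 4 windows, TTCNNNGAA was found once, in Vtn (8.3% of all windows hold it). Neither TTNNGNAA (40.7% of all windows) nor a short kappaB motif (GGGA or GGGG, any 2 bases, then TTCC, in 2.92% of all windows) was found in any of the 4. A match of letters is a description of the window and not a binding site. None of the 3 genes with an ISRE match passed the test described next.

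Serping1 and Clu rose in the PD-L1 knockout retina, and the other 6 regulators did not pass the test. The test was edgeR's quasi-likelihood test over all 16861 genes, with Benjamini-Hochberg adjustment and a threshold of 0.05. Among all tested genes 2.55% passed it, 1.2% higher (203 genes) and 1.35% lower (227 genes), and with scaling to library totals alone 207 of 338 called genes were higher. Of the 8 regulators 2 passed, both higher, and 6 of 8 had a positive log2 fold change. The median log2 fold change of the 8 was 0.31, against 0.00 over all genes tested. At an unadjusted p under 0.05, which 21.3% of all genes reached, Cfi, Cd59a and Cd46 joined them. In the bulk tissue fewer cells of a type and less RNA per cell cannot be told apart, so a level here is a level of the whole sample.

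**Figure D1:**
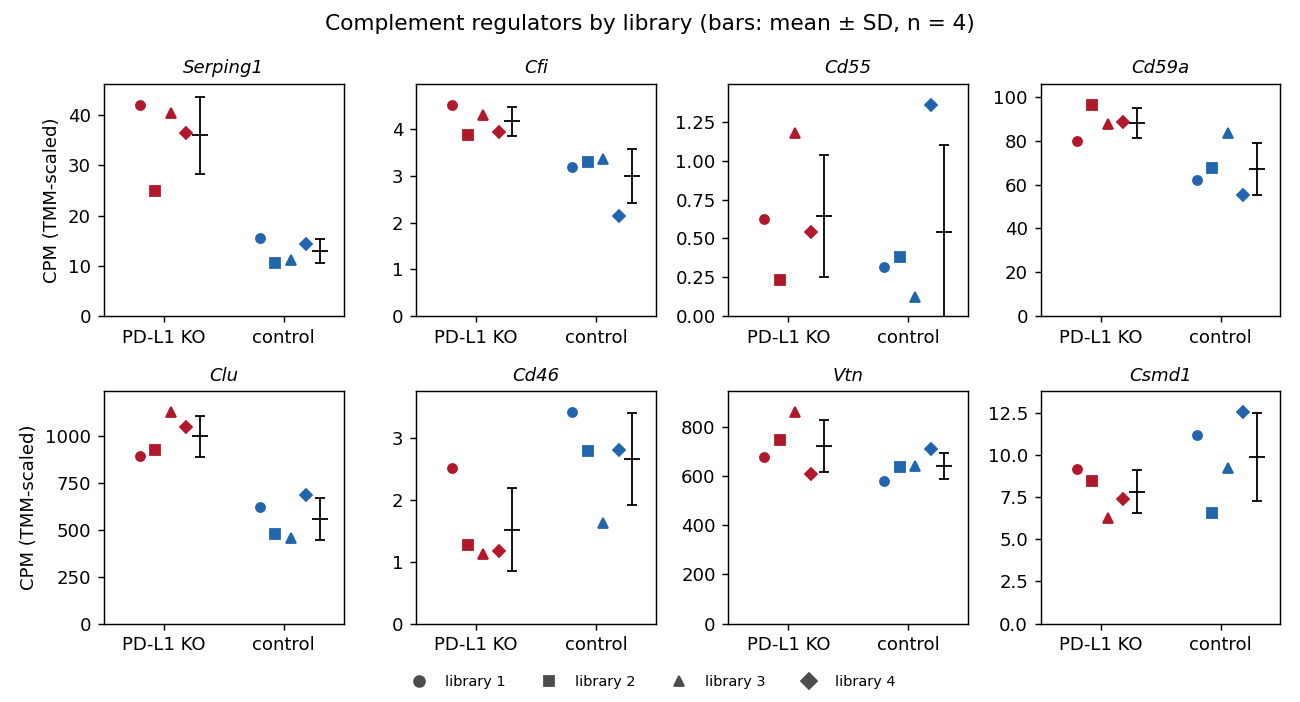
Level of each regulator in each library, in CPM (read counts scaled to a common TMM-adjusted library size), with its own axis from 0. Symbols give the library number within a group, horizontal marks the mean and bars the SD over 4 libraries, and the lower bar of the Cd55 controls is cut at 0. The groups stand apart for Serping1, Clu and Cfi and overlap for the other 5.

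The 8 libraries held 31743404 to 36438248 counts each, so that 1 count was 0.028 to 0.0314 CPM. Cd274 was at 0.252 to 0.435 CPM in the knockout libraries and 3.68 to 4.88 CPM in the controls, the direction that the labels give. The groups also differed in the Y-linked gene Kdm5d, at 13.1 to 27.2 CPM in the knockouts and 0 to 0.126 CPM in the controls. Eif2s3y, also Y-linked, was at 0 to 0.0286 CPM in knockouts and 0 to 0.188 CPM in controls. The Y-linked genes Ddx3y and Uty were not in the count table. Xist, which is made from an inactive X chromosome, was at 2732 to 3462 CPM in knockouts and 3215 to 5152 CPM in controls. Whatever else goes with the difference in Kdm5d cannot be told apart from the knockout. The retina was recognisable in all 8 libraries, with the 10 rod and cone markers together at 34988 to 51597 CPM in knockout libraries and 35724 to 46689 CPM in control libraries. Transcripts of the lens, a neighbouring tissue, were abundant in knockout 3 and in controls 2 and 3 (1529 to 4810 CPM over 10 crystallin and fibre genes, against 2.66 to 37.5 CPM in the other 5 libraries). On the first principal component of all tested genes (31.6% of the variance) control 4 lay at -6.95, between the knockouts at -28.1 to -20.3 and the other controls at 17.7 to 45.1.

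Serping1 (Entrez gene 12258, chromosome 2, 84765360 to 84775444 on GRCm38), which encodes the C1 inhibitor, had the largest change of the 8. Its level was 42.1, 24.8, 40.4 and 36.5 CPM in knockouts 1 to 4, against 15.5, 10.6, 11.2 and 14.4 CPM in controls 1 to 4. The lowest knockout, library 2, was still above the highest control, library 1. This gave a log2 fold change of 1.48 with an SE of 0.17 (edgeR adjusted p = 0.00113), a 2.79-fold difference, and it lay between 1.39 and 1.61 when any 1 library was left out (edgeR adjusted p up to 0.00947). Without the 3 lens-rich libraries, which leaves 3 knockouts and 2 controls, the value was 1.22 and the adjusted p was 0.0591 by edgeR, short of the threshold. Among all 16861 genes, the 3 with the most similar profile over the 8 libraries were Lgals3bp, Oasl2 and Slc6a2. Likeness was the root mean square difference of centred log2 CPM, which was 0.13, 0.14 and 0.15 for these 3. Lgals3bp encodes a secreted galectin-binding glycoprotein, Oasl2 an interferon-induced protein and Slc6a2 the noradrenaline transporter.

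Cfi (Entrez gene 12630, chromosome 3, 129836727 to 129875332), the gene of factor I, was a low transcript with groups that did not overlap. It had 4.52, 3.88, 4.31 and 3.95 CPM in the 4 knockouts, against 3.20, 3.30, 3.36 and 2.13 CPM in the 4 controls. Groups failed to overlap for 3 of the 8 regulators, all higher, and for 11.0% of all genes tested (5.19% higher). With a log2 fold change of 0.48 (SE 0.20) it did not pass the test (edgeR adjusted p = 0.203). It missed the threshold under all 20 alternative settings, with adjusted p from 0.123 to 0.678 and values from 0.32 to 0.64. The libraries held 134 to 160 counts of Cfi in the knockout and 72 to 109 in the control.

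Clu (Entrez gene 12759, chromosome 14, 65968483 to 65981548) encodes clusterin, a secreted chaperone that keeps terminal complement complexes soluble. It was at 891, 926, 1124 and 1046 CPM in the 4 knockouts, against 623, 475, 455 and 683 CPM in the 4 controls. Every knockout was above every control, and control 4 was the highest of the controls. The difference was 0.83 on the log2 scale, with an SE of 0.14 (edgeR adjusted p = 0.0091), a 1.78-fold difference. It lay between 0.74 and 0.95 with 1 library left out (edgeR adjusted p up to 0.0416), and without the 3 lens-rich libraries it was 0.55, with an adjusted p of 0.259 by edgeR. The most similar profile of all genes was that of Cp, which encodes the copper protein ceruloplasmin (root mean square difference 0.11), which averaged 384 CPM in knockout and 221 CPM in control libraries.

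Vtn (Entrez gene 22370, chromosome 11, 78499120 to 78502325), the gene of vitronectin, was abundant, and its groups overlapped. Its levels were 679, 746, 859 and 607 CPM in the knockouts and 582, 637, 641 and 711 CPM in the controls. Knockout 4 was below controls 2, 3 and 4. Its log2 fold change of 0.17 had an SE of 0.11 (edgeR adjusted p = 0.408). Among the knockouts library 3 was highest and library 4 lowest, and control 4 was the highest of the controls.

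Cd59a (Entrez gene 12509, chromosome 2, 104095753 to 104115410) encodes the broadly expressed mouse form of CD59, a lipid-anchored protein that stops the membrane attack complex from forming. It was at 80, 96.6, 87.6 and 88.9 CPM in the knockouts, against 62, 67.9, 83.5 and 55.5 CPM in the controls. Control 3 reached into the knockout range, above knockout 1. The difference of 0.39 on the log2 scale had an SE of 0.12, and the edgeR adjusted p of 0.0879 missed the threshold. DESeq2, which called 8.47% of its genes, gave an adjusted p of 0.0349, and edgeR without control 3 gave 0.0454. Its near copy Cd59b, with which reads can be shared, averaged 0.803 ± 0.180 CPM in knockouts and 0.656 ± 0.380 CPM in controls (SD, n = 4 each).

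Cd55 (Entrez gene 13136, chromosome 1, 130429798 to 130465009), the gene of decay-accelerating factor, was near the limit of detection. It had 22, 8, 42 and 19 counts in the 4 knockouts and 10, 12, 4 and 46 counts in the 4 controls. Each group thus held 1 library with over 40 counts, knockout 3 and control 4. The difference of 0.24 on the log2 scale had an SE of 0.65 (edgeR adjusted p = 0.865), and its sign depended on single libraries: it was -0.23 without knockout 3, -0.10 without control 3 and 1.24 without control 4. The spread between libraries of a group exceeded the difference between the groups.

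Cd46 (Entrez gene 17221, chromosome 1, 195038971 to 195098784) encodes a factor I cofactor that in mice is best known from sperm. Its levels were 2.52, 1.28, 1.12 and 1.17 CPM in the knockouts and 3.42, 2.80, 1.63 and 2.81 CPM in the controls. Knockout 1 stood above the other knockouts and above control 3, so the groups overlapped. On the log2 scale the difference was -0.81 with an SE of 0.33 (edgeR adjusted p = 0.185), and the sign was negative under all 20 alternative settings (-1.17 to -0.31). In the GENCODE annotation the exons of Cd46 share 1248 bases with genes of the opposite strand, A330023F24Rik and the microRNA genes Mir29b-2 and Mir29c. A330023F24Rik was at 122 to 207 CPM in knockouts and 189 to 242 CPM in controls (log2 fold change -0.48, edgeR adjusted p = 0.0851). Whether reads were counted by strand was not stated, and reads of the opposite-strand genes then cannot be told apart.

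Csmd1 (Entrez gene 94109, chromosome 8, 15892538 to 17535385) encodes a large membrane protein of neurons that inhibits the classical pathway. It was at 9.16, 8.46, 6.27 and 7.38 CPM in the knockouts and 11.2, 6.57, 9.21 and 12.5 CPM in the controls. Controls 1, 3 and 4 lay above every knockout, and control 2 lay among the lower knockouts (log2 fold change -0.34, SE 0.20, edgeR adjusted p = 0.339). Among all tested genes the most similar profile was that of its relative Csmd3 (root mean square difference 0.10), which had a log2 fold change of -0.17 (edgeR adjusted p = 0.651). The third relative, Csmd2, was at 0.01 (SE 0.13, edgeR adjusted p = 0.964).

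Per gene length the 8 regulators spanned a wide range. In the FPKM of the authors, which divides by gene length and library size, Vtn averaged 416 ± 54.5 in the knockout and 365 ± 28.7 in the control (SD, n = 4 each). Clu averaged 446 ± 40.4 FPKM in knockouts and 247 ± 50.6 FPKM in controls. Over all 8 libraries these 2 did not separate, with 335 to 482 FPKM for Vtn and 201 to 491 FPKM for Clu. In the control every library had more Vtn than Clu, and in the knockout Clu was above Vtn in 3 of 4 libraries. Cd59a (16.0 to 28.0 FPKM) and Serping1 (5.68 to 23.9 FPKM) followed and overlapped each other. Serping1 was below Cd59a in every library of both groups. Cfi (1.01 to 2.25 FPKM), Cd46 (0.359 to 1.12 FPKM) and Csmd1 (0.386 to 0.781 FPKM) came next, each overlapping its neighbour, and Cd55 was lowest at 0.01 to 0.111 FPKM, apart from all others.

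**Figure D2:**
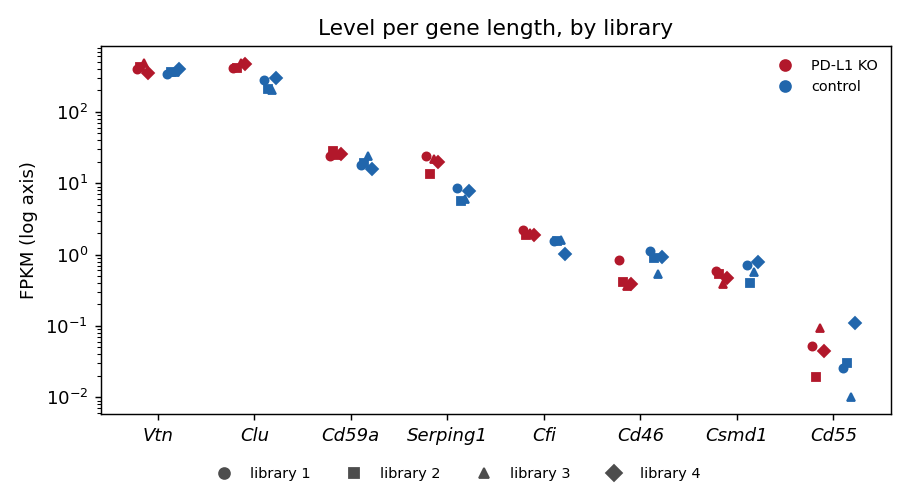
FPKM of the 8 regulators in each library on a log axis, ordered by the mean over 8 libraries, with PD-L1 knockout points left and control points right of each tick. Vtn and Clu stand highest, between 201 and 491 FPKM, and Cd55 lowest, at or under 0.111 FPKM.

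Other complement genes that passed the test all rose, most of them initiators of the classical pathway. Of 57 genes listed, 51 were in the table, 32 were tested, 7 rose and none fell, with a median log2 fold change of 0.33, where 2.55% of all genes passed. At an unadjusted p under 0.05, reached by 21.3% of all genes, edgeR had 12 of them higher and 1 lower. DESeq2, with 8.47% of all its genes called, called 10, all higher. By list, 1 of 12 other regulators rose, 4 of 10 initiators of the classical and lectin pathways, 1 of 3 genes of C3 and the alternative pathway, 1 of 6 receptors and 0 of 1 terminal gene. The count of 7 was 3 without knockout 3, 4 without control 3 and 14 (13 of them higher) without control 4. It was 0 without the 3 lens-rich libraries, where edgeR called 15 genes in all. Calls over all genes moved too, from 430 as reported to 108 without knockout 3 and 3209 without control 4.

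Cr1l, which encodes Crry, the widespread membrane regulator of rodents, averaged 5.76 ± 0.887 CPM in knockouts and 6.39 ± 0.796 CPM in controls (log2 fold change -0.15, edgeR adjusted p = 0.647; named after its values were seen). Sez6 and Sez6l2, membrane proteins of neurons with complement control domains, had values of 0.35 and 0.32 (edgeR adjusted p = 0.204 and 0.241). Both passed without control 4 (edgeR adjusted p = 0.00232 and 0.00264), a fit that called 3209 genes in all, against 430 as reported.

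**Figure D3:**
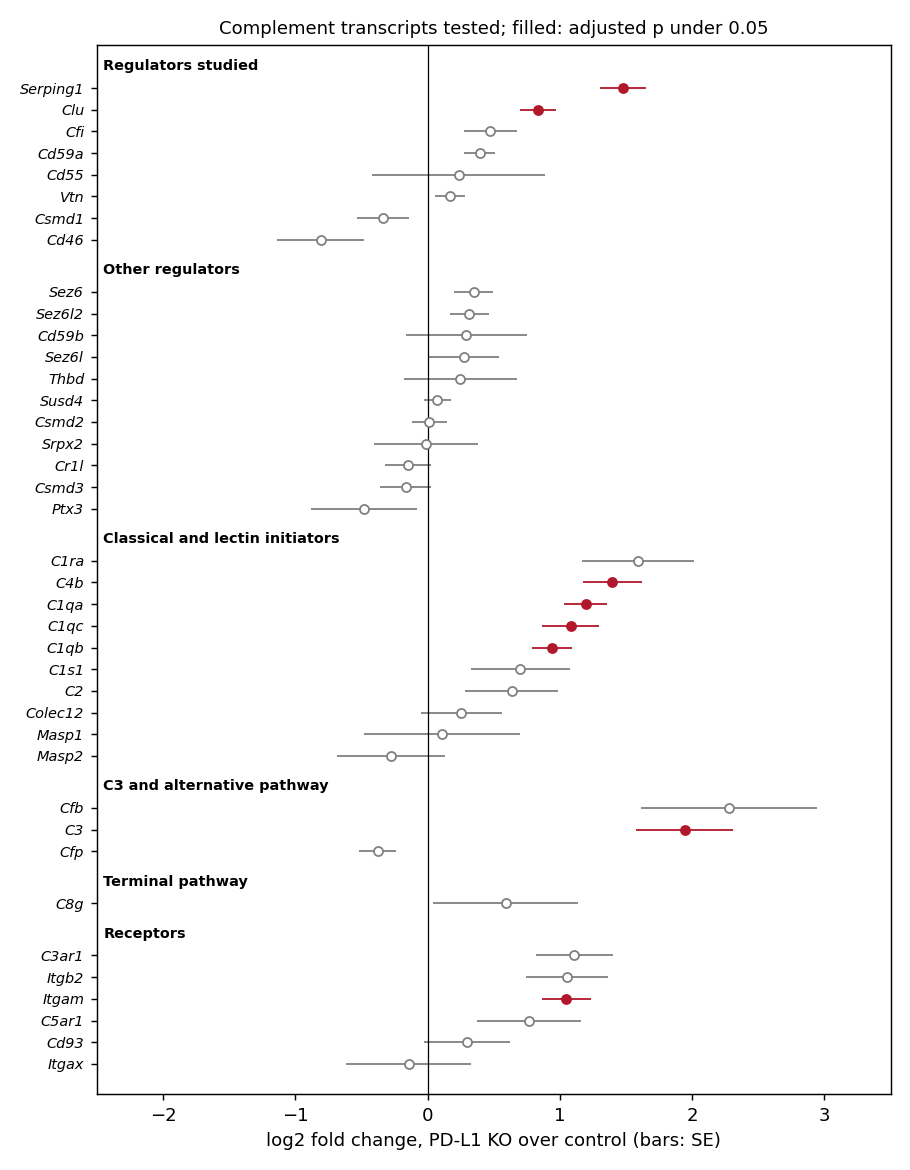
Log2 fold change (PD-L1 knockout over control) with its SE for the tested complement genes reported here, by role, with filled points for an adjusted p under 0.05 in edgeR. Filled points are Serping1, Clu, C4b, C1qa, C1qc, C1qb, C3 and Itgam, all to the right of 0, and Cd46 is the lowest point.

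Among the initiators C1qa, C1qb and C4b rose, by 1.20, 0.94 and 1.40 on the log2 scale (edgeR adjusted p = 0.00349, 0.00808 and 0.00783), and so did C1qc (1.08, edgeR adjusted p = 0.023; named after its values were seen). C1ra, the protease that C1 inhibitor binds, had a log2 fold change of 1.59 (SE 0.42, edgeR adjusted p = 0.0642), and C1s1 of 0.70 (SE 0.37, edgeR adjusted p = 0.295). C3, the substrate of the convertases, rose by 1.94 (edgeR adjusted p = 0.0173), a call lost in 6 of 20 alternatives. These were the fits without knockout 3, control 2 or control 3 (edgeR adjusted p up to 0.0692) or without the lens-rich libraries (0.37), edgeR with robust dispersions (0.06) and limma on log2(FPKM + 1) (adjusted p = 0.0666). Cfb, the gene of factor B, had a value of 2.28 (SE 0.66, edgeR adjusted p = 0.0826), with 10.2 CPM in knockout 1 against at most 2.54 CPM in the other knockouts. Cfp, which encodes properdin, had a value of -0.38 (SE 0.14, edgeR adjusted p = 0.145). Itgam, a chain of complement receptor 3, rose by 1.05 (edgeR adjusted p = 0.0116, and 0.0518 without knockout 3), while C3ar1 had a value of 1.11 (edgeR adjusted p = 0.0612) and Itgb2 of 1.05 (edgeR adjusted p = 0.0861).

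Transcripts of the late components, whose assembly CD59, clusterin and vitronectin oppose, were few. Summed over Hc (the gene of C5), C6, C7, C8a and C8b there were 5, 2, 12 and 22 counts in the 4 knockouts and 2, 3, 0 and 12 counts in the 4 controls. The sum of 0 in control 3 allows up to 0.0924 CPM, for counting error only. C8g was the terminal gene with enough counts to test, with 0.747 ± 0.258 CPM in knockouts and 0.495 ± 0.410 CPM in controls (SD, n = 4 each; log2 fold change 0.59, edgeR adjusted p = 0.553).

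Whether a regulator moved more or less than its partner was asked by ratios of FPKM within each library, each tested by an exact two-sided permutation test. The test can give no p below 0.0286 with 4 against 4, and p-values were adjusted over the 6 ratios computed, 5 of which are given. The log2 ratio of Serping1 to C1s1 was 4.00, 4.80, 4.57 and 4.91 in the knockouts and 3.54, 3.40, 4.51 and 3.66 in the controls, a mean difference of 0.79 (exact permutation p = 0.0571, adjusted 0.171). Control 3 was the control that overlapped the knockouts. The ratio of Cfi to C3 was -1.70, 0.08, -0.82 and -1.06 in the knockouts and -0.19, 0.97, 1.07 and 0.13 in the controls, a mean difference of -1.37 (exact permutation p = 0.0571, adjusted 0.171). Here knockout 2 lay among the controls. Serping1 to C1ra differed by -0.13 between the group means, with a spread of 0.51 in the knockout and 0.54 in the control (SD, n = 4 each; exact permutation p = 0.743, adjusted 0.743). For Serping1 to C1qa the difference was 0.25 (exact permutation p = 0.229, adjusted 0.343) and for Cfi to C4b -0.97 (exact permutation p = 0.114, adjusted 0.229). None of these 5 passed. Adjusted over 6 ratios, a single ratio at the smallest possible p stays above the threshold unless several others also have that p. The lack of a call therefore cannot decide the question for any single ratio, and it does not show that regulator and partner changed alike.

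**Figure D4:**
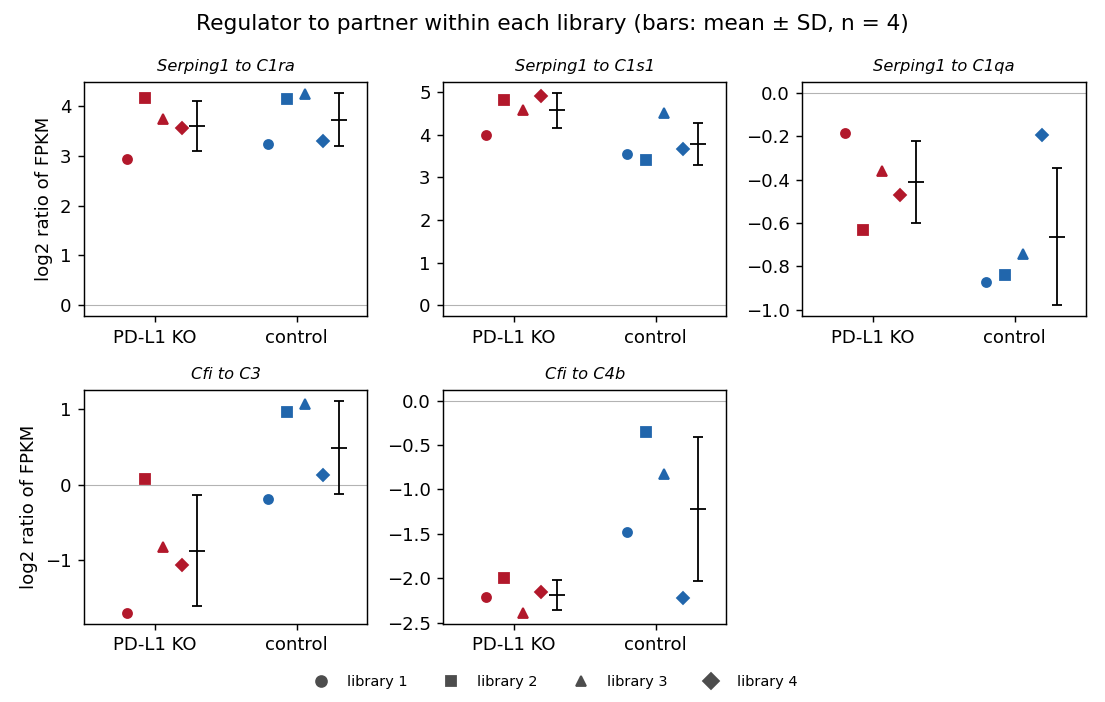
Log2 ratio of the FPKM of a regulator to that of its partner in each library, with the mean and SD over 4 libraries per group and a grey line at 0. Serping1 to C1s1 is higher in the knockouts except for control 3, and Cfi to C3 is lower in the knockouts except for knockout 2.

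Markers of several cell types differed alongside Serping1 and Clu, and their part in those results was not tested. Of all genes tested 1.2% rose and 1.35% fell. Of 9 markers of reactive glia 7 rose, among them Lcn2 and Stat3. Gfap (log2 fold change 0.28, edgeR adjusted p = 0.208) and Pax2 (0.37, edgeR adjusted p = 0.657) did not pass. The 9 markers summed to 541 to 697 CPM in knockouts and 338 to 397 CPM in controls. Of 10 markers of microglia and macrophages 5 rose, among them C1qa and Itgam, which the complement lists hold too. Tmem119, Ptprc, Cd68, Aif1 and P2ry12 did not pass, with log2 fold changes of 0.79, 0.72, 0.68, 0.51 and 0.03. Their edgeR adjusted p ran from 0.0568 for Tmem119 to 0.954 for P2ry12. The 10 markers summed to 88.1 to 115 CPM in knockouts and 46.3 to 69.8 CPM in controls. For Müller glia 1 of 10 markers rose (Crym), with sums of 4456 to 6048 CPM in knockouts and 4147 to 5178 CPM in controls. For pigment epithelium it was 1 of 10 (Rgr), with 159 to 330 CPM in knockouts and 95.6 to 264 CPM in controls, and for endothelium 1 of 10 (Vwf), with 197 to 217 CPM in knockouts and 146 to 205 CPM in controls. The 4 tested haemoglobin genes fell, in a list that summed to 1.68 to 4.03 CPM in knockouts and 10.1 to 14.5 CPM in controls. Of the rod and cone markers 1 of 10 fell (Arr3), and of the ganglion, amacrine and bipolar markers 1 of 11 (Nefl), with sums of 1760 to 1885 CPM in knockouts and 1628 to 2150 CPM in controls. No marker passed among 8 of pericytes (78.3 to 87.1 CPM in knockouts, 81.3 to 96.6 CPM in controls), 7 of fibroblasts (32.4 to 46.1 CPM in knockouts, 40.3 to 48.6 CPM in controls) and 9 tested of lens. In these lists no marker was at 0 in every library.

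Serping1 and Clu kept their direction under all 20 alternatives and passed the threshold in 19 of them, the exception being the fit without the 3 lens-rich libraries. Cd59a passed in 2 of 20, Cfi, Cd46, Vtn and Csmd1 in 0 of 20, and Cd55 in 0 of 19. DESeq2, 1 of these 19, gave Cd55 a fold change but no adjusted p.

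**Figure D5:**
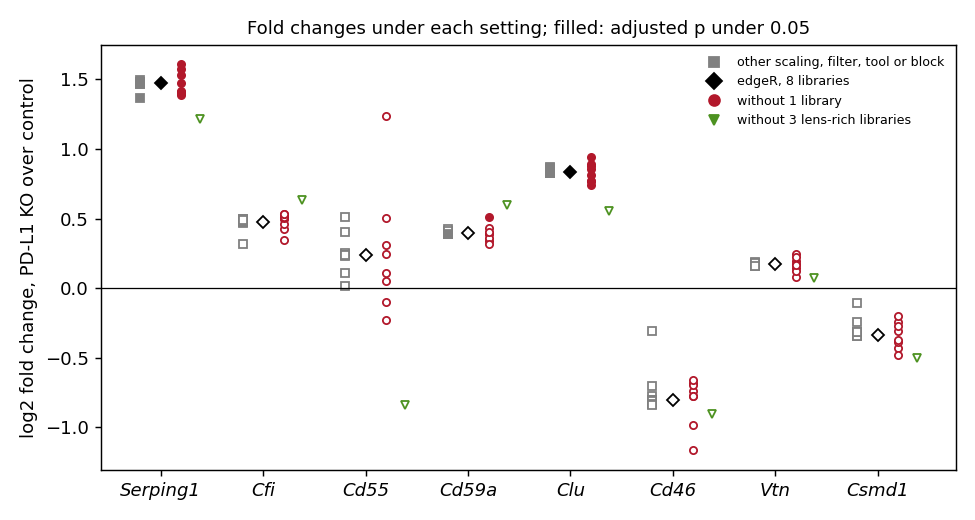
Log2 fold change (PD-L1 knockout over control) of each regulator by edgeR on 8 libraries, under another scaling, filter, tool or block, without 1 library, and without the 3 lens-rich libraries. Filled symbols mark an adjusted p under 0.05. Serping1 stays between 1.22 and 1.61 and Clu between 0.55 and 0.95, while Cd55 lies on both sides of 0.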

How the data were processed

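Retinal RNA was extracted in TRIzol, and the library kit was VAHTS Universal V6, per the labels' protocols. The values used are the authors' deposited raw read counts per gene and their deposited FPKM. As tools the submitters' processing notes name HTSeq, HISAT2 and fastp, and as build mm10; tool versions, annotation, strand setting and filters were not stated. Columns were matched to samples by title.

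Counts were tested with edgeR 4.0.16 in R 4.3.3: TMM scaling, filterByExpr (minimum count 10, total 15), quasi-likelihood F test, 2 groups of 4, no covariate. A log2 fold change is knockout over control, its SE is the value divided by the square root of F, and p-values are two-sided. The code was tested on simulated data. Alternatives were other scalings and filters, robust dispersions, DESeq2 1.42.0, limma 3.58.1 (voom on counts, and trend on log2 FPKM), left-out libraries and a block by title number. The members, gene lists and tests were chosen with earlier results of these data known. Genes named are the 8 regulators, the partners in the 6 ratios, the 3 with the smallest p of each list, some similar profiles, and others where marked. Similar profiles were ranked for all 8 regulators. Of these, 3 are named for Serping1 and 1 each for Clu and Csmd1. A chi-square per gene of 20.2 to 108 within pairs of replicates, where sampling noise gives about 1, showed no pair of files from 1 library. Positions are from RefSeq GRCm38.p6, matched by Entrez identifier. Counting error does not cover PCR duplicates. Results of some items are not reported here, though counts over lists include them.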

Additional observations from a re-analysis of the deposited data

Results flagged for a closer look

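In 5 cases 1 library of a group of 4 stood apart from the other 3, with a gap to its neighbour, as a share of the group's range, above Dixon's 95% critical value. This was looked for in 52 groups (26 named genes in both genotypes), where chance gives about 1 in 20. Cd46 was at 2.52 CPM in knockout 1, against 1.12 to 1.28 CPM in the other knockouts. Cfi was at 2.13 CPM in control 4, against 3.20 to 3.36 CPM in the other controls. Itgam was at 2.77 CPM in control 3, against 4.02 to 4.20 CPM in the other controls. Sez6 was at 81.1 CPM in control 4, against 49.6 to 54.0 CPM in the other controls, and Sez6l2 was at 103 CPM in control 4, against 63.8 to 65.7 CPM in the other controls.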

How the results depend on the processing

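Without the 3 lens-rich libraries (3 knockouts, 2 controls) Serping1 was at 1.22 and Clu at 0.55, both short of the threshold, and Cd55 was at -0.84. In that fit edgeR called 0 of 8 regulators, 0 of 33 other complement genes and 15 of 17351 genes in all. At an unadjusted p under 0.05 there were 5 regulators (3 higher, 2 lower) and 10 other complement genes, all higher. Of all genes 1306 reached that, 625 higher and 681 lower. Fewer samples were fitted, and the cause was not tested. DESeq2 called Cd59a (0.39) and 1320 genes. The count of all genes was 690 with no filter on low counts (11 complement genes), 228 with limma-trend on log2(FPKM + 1), and 430 as reported. With 1 library left out, it lay between 108 (without knockout 3) and 3209 (without control 4), that of complement genes between 3 and 14, and that of regulators between 2 and 3. In the same fits Cd55 ranged from -0.23 to 1.24, Cd59a from 0.31 to 0.51 and Serping1 to C1ra from -0.31 to 0.093, and that ratio was 0.039 with 0.1 added to both FPKM values. The title numbers share only a number: deviations of same-numbered libraries correlated at 0.21, -0.04, 0.12 and 0.01, and 1 of 4 knockouts matched best with its own number. With the replicate block edgeR called 228 genes, Serping1 at 1.47 and Clu at 0.85, and no regulator changed its call; for the ratios, a sign-flip test over 4 pairs cannot reach the threshold. Cd55 had 4 to 46 counts per library, in libraries of similar depth.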

Other observations

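The relatives of C1 inhibitor among the serpins gave 1 call in 7 tested genes, where 2.55% of all genes passed (1.2% higher). Serpina3n, an acute-phase protease inhibitor of reactive astrocytes, rose by 1.60 on the log2 scale (edgeR adjusted p = 0.00379), with 76.6 ± 12.4 CPM in knockouts and 25.4 ± 10.3 CPM in controls (SD, n = 4 each). Serpinh1, the collagen chaperone, had a log2 fold change of 0.46 (edgeR adjusted p = 0.106) and Serpine2, protease nexin, of 0.43 (edgeR adjusted p = 0.15). All 7 had positive values, with a median of 0.43, against -0.001 over all genes tested. Serpine2 and Serpinh1 are not complement regulators.

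The deposited table annotates 76 genes with the term Complement and coagulation cascades, among them 7 of the 8 regulators, all but Csmd1. Of these 76, 48 were tested, 13 rose and none fell in edgeR, with a median log2 fold change of 0.41. The 13 include Serping1 and Clu, so this count is not independent of the calls given above. Of all genes tested 2.55% passed, 1.2% higher. At an unadjusted p under 0.05 the term had 21 genes higher and 2 lower. Of all 16861 genes tested 21.3% reached that, 1772 higher and 1824 lower. Without the 3 lens-rich libraries edgeR called 1 of its 48 tested genes, higher.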
